A study of Homo sapiens with 16 samples.

Results

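The aldo-keto reductases AKR1A1, AKR1B1, AKR1B10, AKR1C1, AKR1C2, AKR1C3 and AKR7A2 were followed through 4 stages of a fibroblast model of malignant transformation at 2 oxygen levels. They are 7 of 19356 protein-coding genes in the transcript table, and 6 of them passed the filter on low values in at least 1 comparison. The members were chosen by their levels in these same libraries, across stages and oxygen, so their levels and differences are given as a description with no p-value. Levels are in TPM, the abundance of transcripts on a scale that totals 1000000 in a library, summed over the transcripts of a gene. TPM is scaled by transcript length, so levels of different genes can be set side by side.

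The model consists of BJ cells, a human fibroblast line, and of 3 lines derived from it in sequence. The stages are Primary BJ, BJ hTERT+ (immortalized by the catalytic subunit of telomerase), BJ hTERT+ SV40+ (transformed by the Large-T antigen of the SV40 virus) and BJ hTERT+ SV40+ Ras-G12V (metastasizing, with an oncogenic Ras in addition). Each later line therefore carries the changes of the earlier ones, and each stage is represented by a single line. All were kept in the same serum-containing medium for 6 passages, at atmospheric oxygen or at 3% oxygen, and 2 plates grown in parallel gave 2 libraries in each of 8 groups. P-values then measure the spread between parallel plates. The comparisons ask how decreased oxygen and each transforming step change the transcriptome.

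Aldo-keto reductases are enzymes that use NADPH to reduce aldehydes and ketones to alcohols. AKR1B1, known as aldose reductase, converts glucose to sorbitol in the first step of the polyol pathway and also has prostaglandin F synthase activity. AKR1C1, AKR1C2 and AKR1C3 are hydroxysteroid dehydrogenases, of which AKR1C3 reduces weak androgens and estrogens to potent ones and makes prostaglandin F. AKR1A1 is aldehyde reductase, AKR7A2 reduces succinic semialdehyde and aflatoxin aldehydes, and AKR1B10 reduces retinal and lipid aldehydes. Several of these genes are known targets of NRF2, the transcription factor of the oxidative stress response that binds antioxidant response elements.

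The AKR1C genes lie side by side and are so alike that reads can be hard to assign. In GENCODE 44 on GRCh37, AKR1C1 lies on chromosome 10 from 5005445 to 5025475 on the forward strand, AKR1C2 from 5029967 to 5060223 on the reverse strand, and AKR1C3 from 5077546 to 5149878 on the forward strand. The coding sequences of AKR1C1 and AKR1C2 were identical at 98% of aligned bases and their proteins at 97.8% of residues. AKR1C1 and AKR1C3 shared 91.4% of coding bases and 87.9% of residues. The first 120 coding bases are shown because they give the reader this closeness directly, with capitals at each base that differs from AKR1C1, 4 in AKR1C2 and 16 in AKR1C3.
AKR1C1: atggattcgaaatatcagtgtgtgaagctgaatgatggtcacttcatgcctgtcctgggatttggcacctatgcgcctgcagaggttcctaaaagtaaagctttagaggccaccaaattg
AKR1C2: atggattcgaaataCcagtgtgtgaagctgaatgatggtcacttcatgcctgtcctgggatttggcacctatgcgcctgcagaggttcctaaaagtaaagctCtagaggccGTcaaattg
AKR1C3: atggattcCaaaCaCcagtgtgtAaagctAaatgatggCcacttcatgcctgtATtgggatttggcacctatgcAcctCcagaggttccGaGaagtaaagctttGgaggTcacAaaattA

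The likeness extends upstream of the transcription start. RefSeq promoter windows on GRCh38.p14 run from 250 bases before to 50 bases after the start. They were matched for 6 of the 7 members, all but AKR1B10. The windows of AKR1C1 (chr10:4963165-4963464, forward strand) and AKR1C2 (chr10:5003808-5004107, reverse strand) shared an unbroken run of 245 identical bases, printed in capitals. AKR1C3 has 2 windows (chr10:5048531-5048830 and chr10:5094164-5094463, forward strand), whose longest runs shared with AKR1C1 were 18 and 19 bases.
AKR1C1 promoter: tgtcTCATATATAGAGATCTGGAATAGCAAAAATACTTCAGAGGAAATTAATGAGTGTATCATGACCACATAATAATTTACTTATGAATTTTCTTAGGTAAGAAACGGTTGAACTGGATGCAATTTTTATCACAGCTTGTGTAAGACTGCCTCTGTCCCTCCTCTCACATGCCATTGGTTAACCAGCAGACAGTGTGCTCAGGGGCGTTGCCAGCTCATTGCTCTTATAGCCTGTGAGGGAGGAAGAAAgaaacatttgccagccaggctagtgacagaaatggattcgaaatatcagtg
AKR1C2 promoter: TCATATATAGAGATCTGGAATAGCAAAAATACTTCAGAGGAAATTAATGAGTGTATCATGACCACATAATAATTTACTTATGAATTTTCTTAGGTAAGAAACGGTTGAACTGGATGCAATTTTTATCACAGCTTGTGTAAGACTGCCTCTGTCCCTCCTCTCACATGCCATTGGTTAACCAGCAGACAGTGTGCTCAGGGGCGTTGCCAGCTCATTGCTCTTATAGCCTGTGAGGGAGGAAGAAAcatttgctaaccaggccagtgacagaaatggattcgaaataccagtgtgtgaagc

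A search on both strands for the antioxidant response element core TGACNNNGC found it, among the members with a window, in AKR7A2 alone, with 3 matches. That motif occurs in 13.3% of 35116 promoter windows of the same length. The hypoxia response element core ACGTG, found in 21.4% of windows, had 1 match in AKR7A2 and 3 in AKR1A1, of which 2 overlap on opposite strands. The AKR7A2 window is shown because it holds both motifs, which are in capitals (GRCh38.p14, chr1:19312095-19312394, reverse strand). These matches are letters in a window and not measured binding sites, and sequence outside the windows was not searched.
AKR7A2 promoter: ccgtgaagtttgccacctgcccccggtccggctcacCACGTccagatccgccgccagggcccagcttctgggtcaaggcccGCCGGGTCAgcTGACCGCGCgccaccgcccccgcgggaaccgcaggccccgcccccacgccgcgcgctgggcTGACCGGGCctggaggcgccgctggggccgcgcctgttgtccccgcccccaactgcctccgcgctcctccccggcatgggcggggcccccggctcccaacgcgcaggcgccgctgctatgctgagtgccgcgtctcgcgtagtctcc

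Checks of the model and the libraries were as follows. TERT was listed between 0 and 0.543 TPM in the primary libraries and between 31.6 and 193 TPM in all later stages. HRAS was at 94.6 and 78.1 TPM in the metastasizing libraries at atmospheric oxygen, within the range of the transformed and primary libraries, and at 143 and 772 TPM in those at 3% oxygen. Both 3% libraries exceeded both atmospheric libraries of their stage for CA9, PDK1 and NDRG1, known hypoxia targets, except for PDK1 in metastasizing cells. Of 9 fibroblast markers all were above 0 in every library, VIM between 2619 and 6211 TPM, although DCN ranged from 2.23 to 1981 TPM and was below 33 TPM in all transformed and metastasizing libraries. Among 12 markers of other cell types found in the table, CD3E and TYR were at 0 in all 16 libraries and none but CD68 (42.4 to 162 TPM) exceeded 3.46 TPM. The 2 metastasizing libraries at 3% oxygen stood apart from each other, with 11% of genes above 1 TPM differing more than 2-fold, against 1.83% to 4.08% in the other groups. In bulk libraries such as these, fewer cells expressing a gene and less RNA per cell cannot be told apart.

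AKR1B1 was the most abundant member in all 16 libraries and reached its highest level in immortalized cells at atmospheric oxygen. The gene lies on chromosome 7 from 134127108 to 134144036 on the reverse strand (GRCh37). At atmospheric oxygen it stood at 234 and 204 TPM in primary cells, 2947 and 2033 TPM in immortalized cells, 232 and 241 TPM in transformed cells, and 346 and 326 TPM in metastasizing cells. At 3% oxygen the same stages gave 449 and 353, 567 and 525, 760 and 1552, and 593 and 622 TPM. Low oxygen thus went with a higher level in 3 stages and a lower level in the immortalized stage, with no overlap between the libraries in any of the 4. The immortalized level at atmospheric oxygen placed AKR1B1 at rank 32 and 54 of all protein-coding genes, against rank 563 and 662 in primary cells. AKR1B1 supplied 92.3% and 88.7% of the summed TPM of the 7 members in those immortalized libraries, and between 55.7% and 92.5% elsewhere. Ordered by mean, the groups were separate from their neighbours except for transformed and primary cells at atmospheric oxygen, the lowest pair. The transformed libraries at 3% oxygen differed 2.04-fold from each other, the widest replicate gap of this gene.

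AKR1A1 varied far less, from 72.7 to 174 TPM, a ratio of 2.39 between the highest and the lowest library. The gene lies on chromosome 1 from 46016215 to 46035721 on the forward strand. Its levels at atmospheric oxygen were 109.5 and 107 TPM in primary cells, 168 and 174 TPM in immortalized cells, 72.7 and 83.7 TPM in transformed cells, and 164 and 157 TPM in metastasizing cells. At 3% oxygen they were 104 and 103, 146 and 143, 84.9 and 82.3, and 112 and 101 TPM. Immortalized cells were thus at the top and transformed cells at the bottom, and the 3% libraries were below the atmospheric ones in every stage but the transformed, where they overlapped.

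AKR7A2, on chromosome 1 from 19630459 to 19638638 on the reverse strand, had the smallest ratio of highest to lowest library among the 5 members above 0 in all 16, 1.90, and lay between 33.2 and 63.2 TPM. Atmospheric libraries gave 46.1 and 53.1 TPM in primary, 38.6 and 54.1 TPM in immortalized, 62.3 and 56.4 TPM in transformed, and 63.2 and 49.2 TPM in metastasizing cells. Those at 3% oxygen gave 45.2 and 33.9, 36.7 and 33.9, 44.3 and 40.1, and 33.2 and 44.5 TPM. Both 3% libraries were below both atmospheric ones in each of the 4 stages, by 0.33 to 0.53 on the log2 scale, yet every neighbouring pair of groups in the order of means overlapped. It was the only member whose 4 oxygen differences all had non-overlapping libraries and the same sign. How many of all genes share this trait was not counted, and none of the 4 differences passed the thresholds used below.

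**Figure D1:**
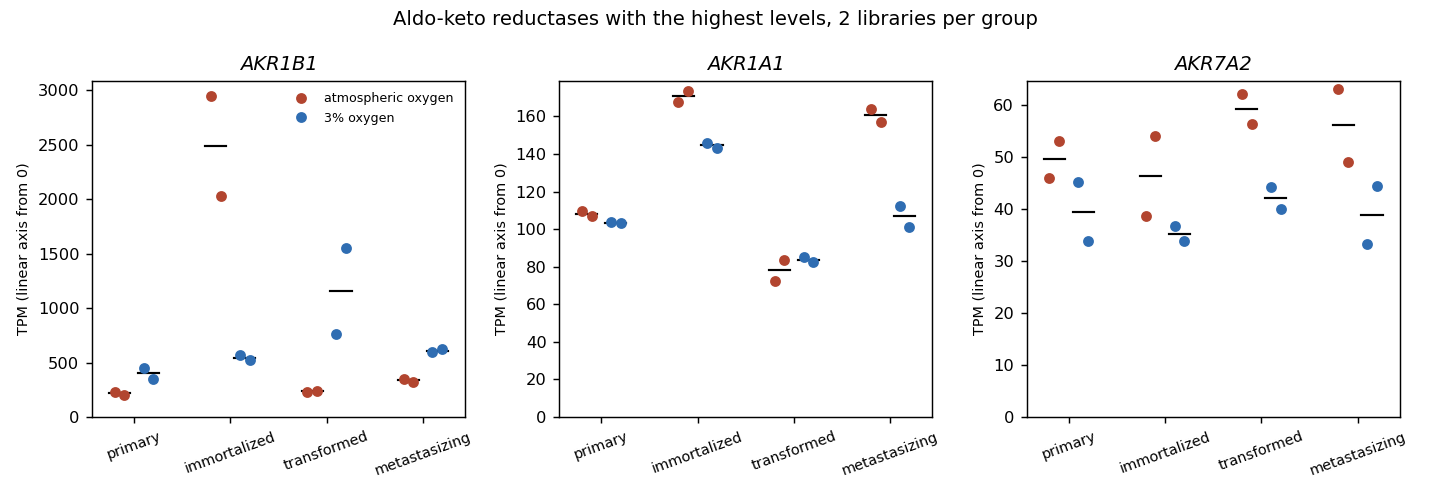
Levels in TPM (linear axis from 0) of AKR1B1, AKR1A1 and AKR7A2 in 4 stages at atmospheric (red) and 3% oxygen (blue), with 1 point per library and a line at the mean of 2. AKR1B1 reached 2947 and 2033 TPM in immortalized cells at atmospheric oxygen, above all other groups, while AKR7A2 lay lower at 3% oxygen in each stage.

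AKR1C1 followed the same peak at a far lower level. Its 2 libraries held 28.6 and 19.2 TPM in immortalized cells at atmospheric oxygen, against 1.88 and 1.54 TPM in primary, 1.36 and 1.44 TPM in transformed, and 1.31 and 1.38 TPM in metastasizing cells. At 3% oxygen the levels were 7.24 and 5.02 TPM in primary, 5.54 and 5.42 TPM in immortalized, 0.757 and 0.850 TPM in transformed, and 2.30 and 2.87 TPM in metastasizing cells. The 3% libraries were therefore above the atmospheric ones in primary and metastasizing cells and below them in immortalized and transformed cells, with no overlap in any stage.

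AKR1C3 was likewise highest in immortalized cells at atmospheric oxygen, with 9.65 and 8.89 TPM, and lower there at 3% oxygen, with 2.97 and 2.94 TPM. Primary cells had 1.05 and 0.672 TPM at atmospheric and 0.507 and 0.269 TPM at 3% oxygen. In transformed cells the order turned, with 0.487 and 0.143 TPM at atmospheric and 1.77 and 1.80 TPM at 3% oxygen. Metastasizing cells gave 0.968 and 0.944 TPM at atmospheric oxygen and 1.66 and 9.65 TPM at 3% oxygen. The last 2 libraries are the pair that stood apart from each other, and replicate b alone reached the immortalized level.

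AKR1C2 did not exceed 1.43 TPM in any library and was listed at 0 in 1. Its 2 highest libraries, 1.43 and 1.2 TPM, were again those of immortalized cells at atmospheric oxygen, followed by 1.12 and 1.16 TPM in the same cells at 3% oxygen and 1.05 and 1.15 TPM in metastasizing cells at 3% oxygen. The other 10 libraries had 0.807 TPM or less. A wrong split of reads between AKR1C1 and AKR1C2 would change their summed TPM little only where the transcripts are of like length. That sum came to 30.0 and 20.4 TPM in immortalized cells at atmospheric oxygen and to 7.64 TPM or less in every other library. With AKR1C3 added, the sums were 39.7 and 29.3 TPM there and 13.7 TPM or less elsewhere.

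AKR1B10, on chromosome 7 from 134212319 to 134226164 on the forward strand, reached 1.0 TPM in 1 library and was below that in the other 15. The highest pair, 1.0 and 0.875 TPM, came from immortalized cells at atmospheric oxygen, and overlapped with 0.922 and 0.426 TPM in the same cells at 3% oxygen. It is known for its expression in intestinal epithelium and in some carcinomas, and it did not pass the filter in any comparison here.

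**Figure D2:**
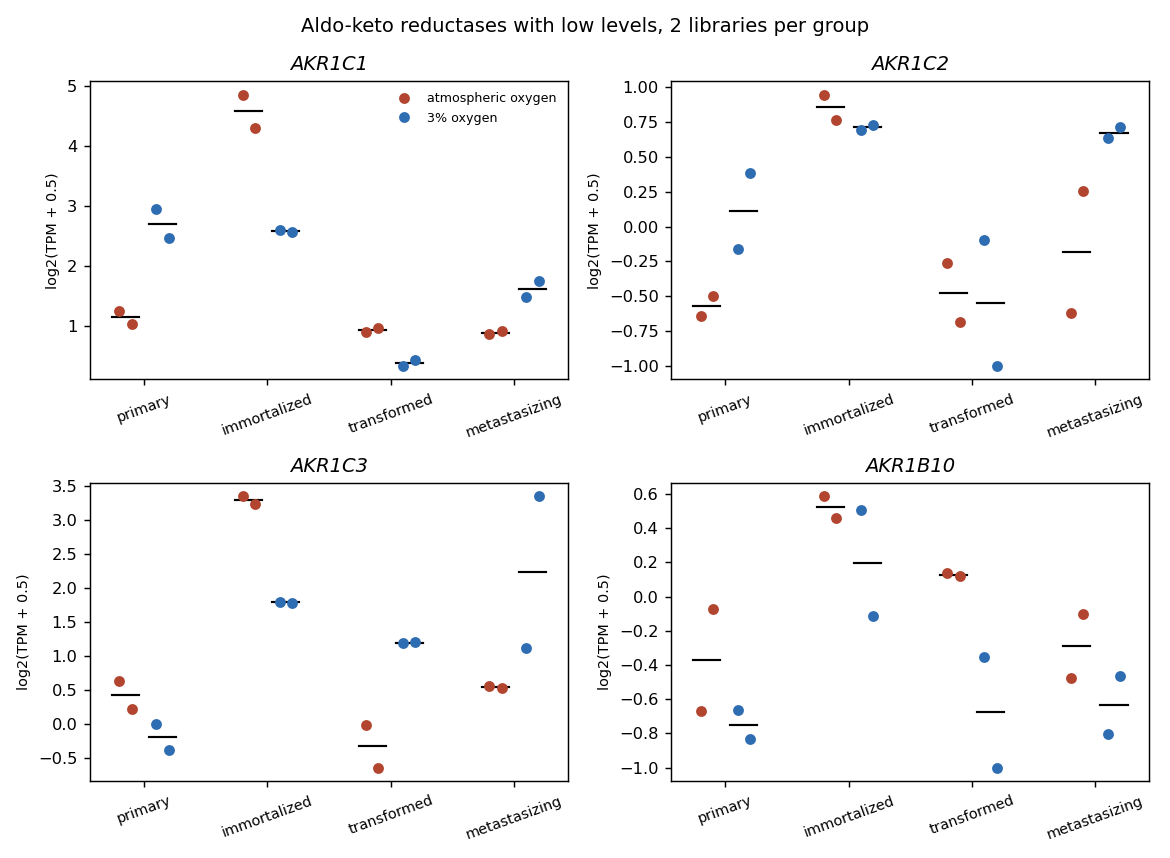
Levels as log2(TPM + 0.5) of AKR1C1, AKR1C2, AKR1C3 and AKR1B10 in 4 stages at atmospheric (red) and 3% oxygen (blue), with 1 point per library and a line at the mean of 2; the vertical axes differ. AKR1C1 and AKR1C3 peaked in immortalized cells at atmospheric oxygen, and the 2 metastasizing libraries at 3% oxygen were far apart for AKR1C3 (1.66 and 9.65 TPM).

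Differences between groups were taken as log2(TPM + 0.5), which understates the change of low genes, and fitted with limma on all protein-coding genes. A gene was counted as called if its adjusted p (Benjamini-Hochberg) was under 0.01 and its change over 2-fold, and genes entered a comparison if at least 1 of its groups averaged 1 TPM or more. The median log2 difference over all genes tested was 0.077, 0.110, 0.013 and -0.128 for oxygen in the primary, immortalized, transformed and metastasizing stages, and lay between -0.090 and 0.216 for the stage comparisons. In this section, differences are 3% minus atmospheric oxygen.

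In primary cells AKR1C1 was higher at 3% oxygen by 1.57 ± 0.22 (SE, n = 2 per group), and AKR1B1 differed by 0.86 ± 0.27 without passing the thresholds. One of the 4 members tested was called higher, where 2.78% of 12184 genes were called higher and 2.52% lower. In immortalized cells AKR1B1 was lower at 3% oxygen, with a difference of -2.16 ± 0.27, as was AKR1C1, with -2.0 ± 0.22, and 2 of 6 members tested were called lower, beside 2.13% of 12049 genes higher and 2.78% lower. AKR1C3 differed there by -1.5 ± 0.53 and was not called. In transformed cells AKR1B1 was higher by 2.20 ± 0.27 and was the only call among 5 members tested, beside 4.90% of 12242 genes higher and 2.58% lower. AKR1C3 differed by 1.52 ± 0.53 and AKR1C1 by -0.55 ± 0.22 in the same cells. In metastasizing cells none of 6 members tested was called, beside 3.06% of 12288 genes higher and 4.60% lower, with AKR1B1 at 0.85 ± 0.27, AKR1C1 at 0.74 ± 0.22 and AKR1A1 at -0.59 ± 0.085. Nothing is read from these counts, since the members were picked on the same values.

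The calls of AKR1C1 in primary and AKR1B1 in transformed cells were lost when only the 2 groups compared entered the fit. That fit, which has few degrees of freedom, also called AKR1C3 lower in immortalized cells. The cause of these shifts was not tested. Without either of the metastasizing libraries at 3% oxygen, which differ most for AKR1C3, this gene was called lower in immortalized and higher in transformed cells, and without replicate a it was called higher in metastasizing cells as well, at 2.80.

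**Figure D3:**
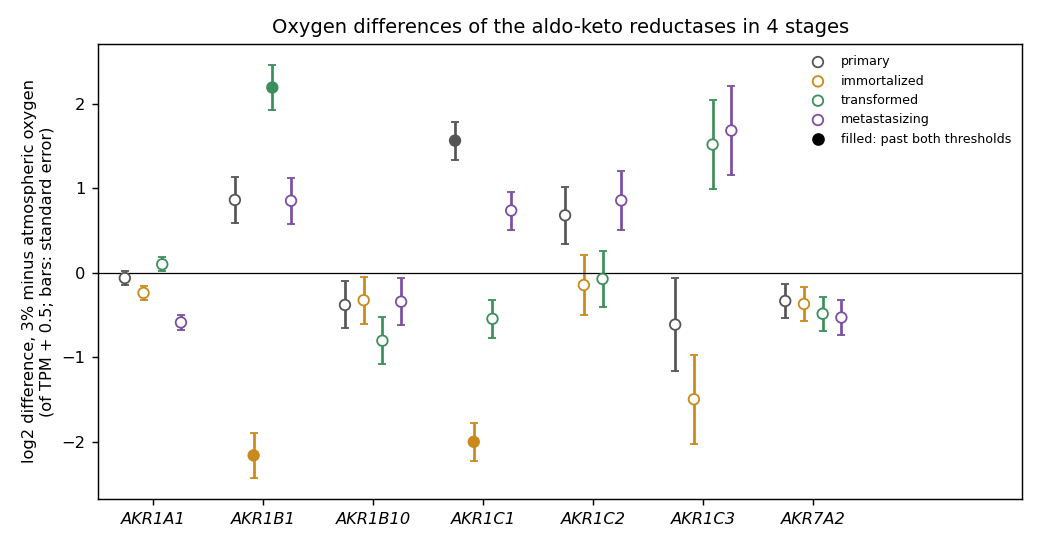
Log2 difference of TPM + 0.5 between 3% and atmospheric oxygen (vertical axis) for each of the 7 members in 4 stages (colours), with bars for the standard error and filled points for those past both thresholds. AKR1B1 lay at -2.16 in immortalized and at 2.20 in transformed cells, and AKR7A2 lay below 0 in all 4 stages.

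The oxygen difference of AKR1B1 changed by -3.03 ± 0.38 on the log2 scale from primary to immortalized cells, by 4.36 ± 0.38 from immortalized to transformed cells, and by -1.34 ± 0.38 from transformed to metastasizing cells. For AKR1C1 the corresponding values were -3.57 ± 0.32, 1.46 ± 0.32 and 1.28 ± 0.32. AKR1C3 had -0.88 ± 0.75, 3.02 ± 0.75 and 0.17 ± 0.75. For AKR7A2 none of the 3 exceeded 0.12 in size, with a standard error of 0.29.

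The step from primary to immortalized cells at atmospheric oxygen showed 4 members past the thresholds, all higher. AKR1B1 was higher by 3.48 ± 0.27 on the log2 scale, AKR1C1 by 3.44 ± 0.22, AKR1C3 by 2.86 ± 0.53 and AKR1C2 by 1.43 ± 0.35, while AKR1A1 differed by 0.66 ± 0.085 and AKR7A2 by -0.11 ± 0.20. These were 4 of 6 members tested, beside 5.98% of 12388 genes called higher and 6.26% lower. Without replicate b of the primary libraries, or without either immortalized library, AKR1B1 and AKR1C1 alone were called. AKR1C2 was not called without replicate a of the primary libraries either, nor with a pseudocount of 1 or 0.1, without a filter, with a filter of 5 TPM or with only the groups compared in the fit, which leaves 3 members. At 3% oxygen none of 6 members tested was called in this step, beside 4.19% of 12218 genes higher and 5.04% lower. AKR1C3 came nearest, at 1.97 ± 0.53, and AKR1B1 differed by 0.45 ± 0.27.

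The step from immortalized to transformed cells at atmospheric oxygen went the other way. AKR1C1 differed by -3.66 ± 0.22, AKR1C3 by -3.61 ± 0.53, AKR1B1 by -3.37 ± 0.27, AKR1C2 by -1.33 ± 0.35 and AKR1A1 by -1.13 ± 0.085, all lower in transformed cells. These were 5 of 6 members tested, beside 13.2% of 12387 genes called higher and 11.2% lower. The AKR1C2 call was lost without any 1 of the 4 libraries compared, with a pseudocount of 1 or 0.1, with a filter of 5 TPM and with only the groups compared in the fit, leaving 4 members. AKR7A2, the sixth, differed by 0.37 ± 0.20. At 3% oxygen AKR1C1 was again lower, with a difference of -2.20 ± 0.22, and was the single call among 6 members tested, beside 8.96% of 12396 genes higher and 7.38% lower. AKR1B1 differed in the opposite direction there, by 0.99 ± 0.27, and was called higher without replicate a of the transformed libraries at 3% oxygen, at 1.51.

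The step from transformed to metastasizing cells moved few members. At atmospheric oxygen AKR1A1 was higher by 1.04 ± 0.085, 1 of 4 members tested, beside 2.40% of 12203 genes higher and 1.72% lower. Its call stood close to the 2-fold limit and was lost without replicate a of the transformed libraries, at 0.94, and under median-ratio rescaling. At 3% oxygen AKR1C1 was higher by 1.24 ± 0.22, 1 of 6 members tested, beside 1.99% of 12288 genes higher and 3.93% lower. That call was lost without either transformed library at 3% oxygen and without replicate b of the metastasizing libraries at 3% oxygen. AKR1B1 differed by -0.84 ± 0.27 and, without replicate a of the transformed libraries, was called at -1.35. AKR1C3 differed by 1.04 ± 0.53 in this step and by -0.080 without that same replicate b, so its sign rested on 1 library.

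**Figure D4:**
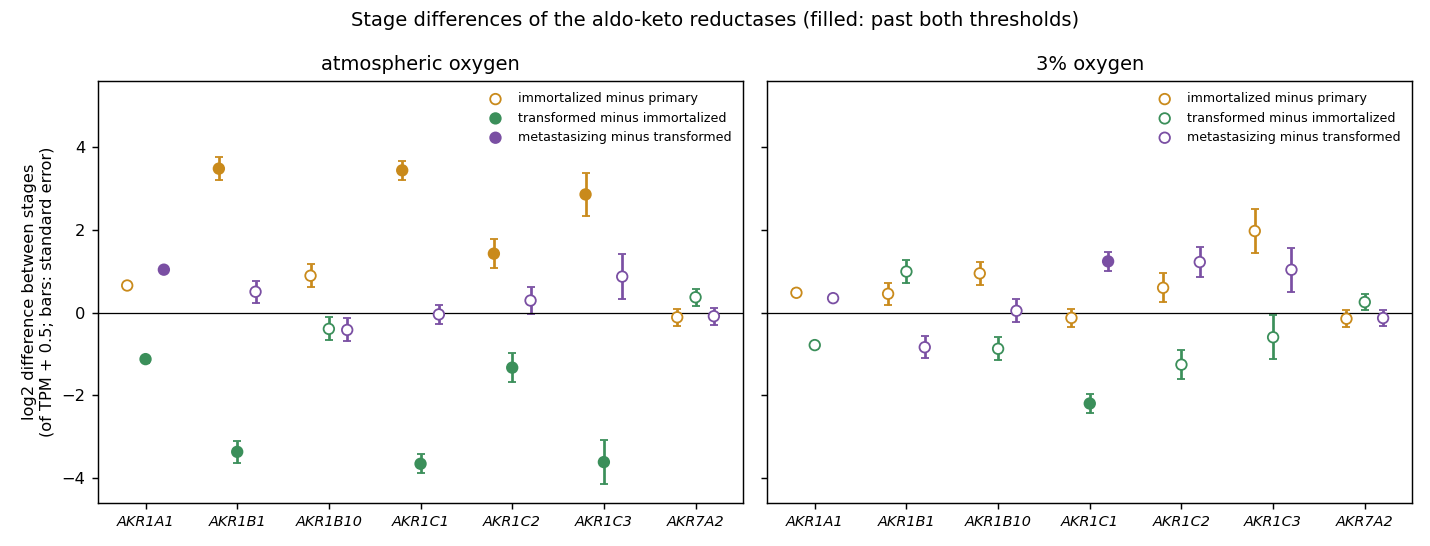
Log2 difference of TPM + 0.5 between neighbouring stages (vertical axis) for each of the 7 members at atmospheric (left) and 3% oxygen (right), with bars for the standard error and filled points for those past both thresholds. At atmospheric oxygen AKR1B1, AKR1C1 and AKR1C3 lay near 3 for the step to immortalized and near or below -3 for the step to transformed cells, and at 3% oxygen AKR1B1 did not fall in the second step.

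Single transcripts carried most of the signal. For AKR1B1 the full-length transcript ENST00000285930 held 87.6% to 97.0% of the TPM of the gene in the 16 libraries. Transcripts annotated as retained introns held 7.61% and 5.95% of AKR1B1 in immortalized cells at atmospheric oxygen, 8.54% and 10.2% in metastasizing cells at atmospheric oxygen, and 1.85% to 7.01% elsewhere, so their share did not follow the level of the gene. AKR7A2 was almost wholly ENST00000235835, with 93.0% to 99.6%, and AKR1A1 was led by ENST00000351829, with 49.1% to 72.6%.

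For AKR1C1 the leading transcript was ENST00000442997, a shorter model of 744 bases, with 77.4% to 98.3% of the TPM, while the full-length ENST00000380872 held 11.5% or less. Of the 31-base words of that shorter transcript, the unit kallisto uses to assign reads, 66.0% also occur in AKR1C2. For the leading AKR1C2 transcript 49.4% occur in AKR1C1, and for AKR1C3 38.2% occur in some other gene. The levels of single AKR1C genes are therefore uncertain. Their sum is not free of this either, since TPM is scaled by transcript length. A wrong split between transcripts of unlike length would change the sum. The leading transcripts of AKR1C1 and AKR1C2 are alike in length, with 744 and 745 bases, while that of AKR1C3 has 972. By the same count no word of AKR1A1 occurs in another gene, 15.9% of AKR7A2 do, mostly in its neighbour AKR7L, and 20.6% of AKR1B1 do, the largest part in the pseudogene AKR1B1P1.

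Across the 8 group means, AKR1B1 and AKR1C3 had a Pearson r of 0.84, AKR1C1 and AKR1C2 one of 0.80, and AKR1B1 and AKR1C1 one of 0.60. AKR7A2 was negatively related to 5 of the 6 others, from -0.12 with AKR1A1 to -0.60 with AKR1C2. These are descriptions over 8 points, all on log2(TPM + 0.5), and the AKR1C genes share reads. Among 10979 other genes that averaged 5 TPM or more in some group, those most like AKR1B1 were TPCN1 (r = 0.96, group means 14.5 to 137 TPM), GEM (0.96, 16.3 to 65.4 TPM) and CXCL6 (0.95, 0.178 to 35.1 TPM), all highest in immortalized cells at atmospheric oxygen. For AKR1C1 they were SLC22A4 (0.97), PRKAR2B (0.97) and ABHD2 (0.96), and for AKR1C3 they were POU2F2 (0.98), MME (0.96) and IL24 (0.96). AKR1C2 was most like HMGA2 (0.95), PIP4P2 (0.93) and TMEM156 (0.93), and AKR1B10 was most like CUEDC2 (0.93), TECPR2 (0.92) and DCAF8 (0.92). The values for AKR1C2 and AKR1B10 are uncertain, since neither gene exceeded 1.43 TPM. Replicates at atmospheric oxygen differed 4.60-fold for AKR1C2 in metastasizing and 3.48-fold for AKR1B10 in primary cells. AKR1A1 was nearest to ARHGEF6 (0.95), PCNX2 (0.95) and PDIA5 (0.94), and AKR7A2 to PPP6R1, OXLD1 and PPP6R2 (each 0.97).

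Of 10 other aldo-keto reductase genes in the table, most were near 0. AKR1C4, AKR1D1, AKR7A3 and AKR7L stayed below 1 TPM in every library, and AKR1B15 lay between 0.532 and 1.89 TPM. KCNAB2, a beta subunit of voltage-gated potassium channels with an aldo-keto reductase fold, had 4.14 and 4.61 TPM in primary and 33.1 and 40.2 TPM in immortalized cells at atmospheric oxygen, a rise of 2.93 ± 0.15 (limma adjusted p = 1.99e-07). In transformed cells it was higher at 3% oxygen, with 16.0 and 13.6 against 6.69 and 6.42 TPM (1.11 ± 0.15, limma adjusted p = 0.000335). AKR1E2 was highest in primary cells, with 4.14 to 6.76 TPM, and fell in the step to immortalized cells at 3% oxygen by 3.09 ± 0.24 on the log2 scale (limma adjusted p = 5.62e-06).

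NFE2L2, which encodes NRF2, lay between 61.6 and 100.5 TPM and its inhibitor KEAP1 between 33.3 and 61.7 TPM, and neither changed over 2-fold in any comparison. At 3% oxygen in transformed cells, NFE2L2 differed by 0.55 ± 0.091 and KEAP1 by -0.55 ± 0.13 (limma adjusted p = 0.00115 and 0.00795). AKR1B1 was higher there, and also in primary and metastasizing cells. NFE2L2 went from 85.6 and 79.5 to 72.6 and 76.0 TPM in primary cells. In metastasizing cells it went from 73.1 and 82.1 to 61.6 and 70.6 TPM. In immortalized cells, where AKR1B1 was lower, NFE2L2 went from 91.1 and 86.5 to 95.1 and 93.6 TPM. A link to AKR1B1 was not tested. Of 8 regulators tested, 3 rose at 3% oxygen in transformed cells, 1 in metastasizing cells and none in primary or immortalized cells. Among all genes 4.9%, 3.06%, 2.78% and 2.13% rose in these stages, in the same order. The small MAF protein gene MAFF, a partner of NRF2 on DNA, rose at 3% oxygen in metastasizing cells, from 21.0 and 18.8 to 86.0 and 64.8 TPM (1.88 ± 0.19, limma adjusted p = 8.57e-05). In transformed cells MAFG rose from 15.0 and 15.6 to 31 and 39.2 TPM (1.17 ± 0.21, limma adjusted p = 0.00181), and BACH1, a repressor at the same elements, from 19.4 and 16.4 to 34.3 and 38.8 TPM (1.01 ± 0.14, limma adjusted p = 0.000451). BACH1 and MAFF also rose in the step from primary to immortalized cells at atmospheric oxygen, by 1.35 ± 0.14 and 1.27 ± 0.19 (limma adjusted p = 3.56e-05 and 0.000462), and both fell in the next step.

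Of 25 further NRF2 targets tested, 1 rose and 5 fell at 3% oxygen in primary cells, 3 fell in immortalized cells, 2 rose and 4 fell in transformed cells, and 1 rose and 3 fell in metastasizing cells. Of all genes 2.78%, 2.13%, 4.9% and 3.06% rose in these stages, and 2.52%, 2.78%, 2.58% and 4.60% fell. With only the groups compared in the fit, all 5 falls in primary cells (NQO1, FTL, FTH1, EPHX1 and PIR) were lost. The median log2 difference of the 25 targets was -0.21, -0.18, -0.40 and -0.34 in these stages, below the median of all genes tested in each. FTH1, the ferritin heavy chain, fell in immortalized cells from 7987 and 6307 to 2071 and 2019 TPM (-1.80 ± 0.17, limma adjusted p = 6.15e-05). SLC7A11, the cystine transporter, rose in transformed cells from 4.98 and 4.67 to 35.7 and 20.2 TPM (2.36 ± 0.38, limma adjusted p = 0.00104), as did the drug exporter ABCC3, from 1.73 and 2.48 to 11.6 and 10.7 TPM (2.18 ± 0.31, limma adjusted p = 0.000496). SRXN1, which repairs peroxiredoxins, rose in metastasizing cells from 28.2 and 28.3 to 126 and 59.3 TPM (1.59 ± 0.24, limma adjusted p = 0.000944).

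Between stages at atmospheric oxygen, FTH1 alone of the 25 targets rose in the step to immortalized cells, where 5.98% of all genes rose. That call was lost without replicate b of the primary libraries, at 0.998. In the step to transformed cells 5 fell, beside 11.2% of all genes. ABCC3 fell there from 30.7 and 25.4 to 1.73 and 2.48 TPM (-3.46 ± 0.31, limma adjusted p = 4.5e-06), and FTH1 to 1912 and 1923 TPM (-1.89 ± 0.17, limma adjusted p = 3.92e-06). At 3% oxygen 4 rose in the step to immortalized cells and 5 fell in the next, beside 4.19% and 7.38% of all genes. Among the 5 was NQO1, a quinone reductase, which went from 646 and 646 to 139 and 106 TPM (-2.41 ± 0.17, limma adjusted p = 1.45e-06). In the last step 3 rose at atmospheric oxygen, beside 2.4% of all genes. At 3% oxygen 3 rose and 2 fell in that step, beside 1.99% and 3.93%.

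Around the polyol pathway 1 gene of 8 or 9 tested rose at 3% oxygen in primary, immortalized and transformed cells each, where 2.78%, 2.13% and 4.90% of all genes rose, and none was called in metastasizing cells. The immortalized one was KHK, ketohexokinase, whose call was lost without any 1 of its libraries and with protein-coding transcripts alone (0.66, limma adjusted p = 0.210). SORD, sorbitol dehydrogenase, which takes the product of AKR1B1 on to fructose, was not called between oxygen levels, though it differed by -0.90 ± 0.16 in transformed cells (limma adjusted p = 0.00158), under the 2-fold limit. It rose in the step from immortalized to transformed cells at atmospheric oxygen, from 7.03 and 8.48 to 30.4 and 28.9 TPM (1.87 ± 0.16, limma adjusted p = 2.7e-06), the step in which AKR1B1 was lower. SLC5A3, the sodium/myo-inositol cotransporter, known like AKR1B1 to respond to osmotic stress, rose at 3% oxygen in transformed cells from 3.56 and 3.57 to 34.1 and 24.4 TPM (2.85 ± 0.27, limma adjusted p = 5.51e-05). It fell in the step to metastasizing cells at 3% oxygen, to 4.25 and 6.28 TPM (-2.37 ± 0.27, limma adjusted p = 0.000219, or 0.0735 with only those groups in the fit). HK2, hexokinase 2, rose at 3% oxygen in primary cells from 12.9 and 13.0 to 45.3 and 37.9 TPM (1.64 ± 0.17, limma adjusted p = 0.000104).

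Of 13 prostaglandin genes tested at atmospheric oxygen, 3 rose and 1 fell in the step to immortalized cells, where 5.98% and 6.26% of all genes did. Of 14 tested in the step to transformed cells 2 rose and 6 fell, beside 13.2% and 11.2% of all genes. PTGS2, the inducible cyclooxygenase, went from 25.0 and 30.6 TPM in primary to 500 and 329 TPM in immortalized and to 0.829 and 0.698 TPM in transformed cells (-8.33 ± 0.49 in the second step, limma adjusted p = 2.37e-07). PTGS1, the constitutive cyclooxygenase, fell in that step from 191 and 200.1 to 1.70 and 1.43 TPM (-6.57 ± 0.30, limma adjusted p = 4.4e-08). PTGES, a prostaglandin E synthase, fell from 21.9 and 38.9 to 0.799 and 1.01 TPM (-4.41 ± 0.61, limma adjusted p = 0.000108). In the last step at atmospheric oxygen 1 of 13 fell, beside 1.72% of all genes. At 3% oxygen 1 of 12 rose in the first step, and 1 of 14 rose and 4 fell in the second. In the last 1 of 13 rose and 1 fell. Among all genes 4.19%, 8.96% and 1.99% rose in these steps, and 5.04%, 7.38% and 3.93% fell. Between oxygen levels 1 of 13 rose and 2 fell in primary cells, and 1 of 12 fell in immortalized cells. In transformed cells 2 of 13 rose, and in metastasizing cells 1 of 13. Among all genes 2.78%, 2.13%, 4.90% and 3.06% rose in the 4 stages, and 2.52%, 2.78%, 2.58% and 4.60% fell. The falls in primary cells, PTGDS (-2.29) and PTGIS (-1.48), were lost with only those groups in the fit. PTGES was lower at 3% oxygen in immortalized cells, at 2.29 and 2.21 TPM (-3.43 ± 0.61, limma adjusted p = 0.00242). PTGS2 rose with 3% oxygen in primary, transformed and metastasizing cells, in the last from 3.82 and 4.06 to 47.4 and 75.8 TPM (3.77 ± 0.49, limma adjusted p = 0.000382), and was not called in immortalized cells, where it had 596 and 557 TPM.

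Of the steroid and retinoid enzymes tested, 2 of 20 fell at 3% oxygen in primary cells, and 1 of 21 rose and 2 fell in immortalized cells. In transformed cells 1 of 19 fell, and in metastasizing cells 2 of 19 rose and 2 fell. Among all genes 2.78%, 2.13%, 4.9% and 3.06% rose in the 4 stages, and 2.52%, 2.78%, 2.58% and 4.6% fell. Between stages at atmospheric oxygen 4 rose and 5 fell among 23 in the first step (5.98% and 6.26% of all genes), 1 rose and 8 fell among 21 in the second (13.2% and 11.2%), and 1 rose among 17 in the last (2.40%). At 3% oxygen 2 rose and 2 fell among 20 in the first step, beside 4.19% and 5.04% of all genes. In the second 3 fell among 20 (7.38% of all genes), and in the last 1 rose among 19 (1.99%). HSD17B2, which oxidises estradiol and testosterone, had 47.3 and 43.3 TPM in immortalized cells at atmospheric and 5.83 and 6.51 TPM at 3% oxygen (-2.78 ± 0.19, limma adjusted p = 1.59e-05), and was listed at 0 in transformed cells at atmospheric oxygen. HSD11B1, which regenerates cortisol, had 34.5 and 24.2 TPM against 0.635 and 0.373 TPM (-4.89 ± 0.66, limma adjusted p = 0.000568) and was listed at 0 in all 4 primary libraries. ALDH1A1, a retinal dehydrogenase, fell at 3% oxygen in primary cells from 468 and 392 to 50.8 and 57.8 TPM (-2.97 ± 0.25, limma adjusted p = 3.68e-05) and was listed at 0 in all 4 immortalized libraries. ALDH1A2 rose in the step to immortalized cells at atmospheric oxygen, from 0.930 and 0.716 to 43.6 and 33.1 TPM (4.87 ± 0.41, limma adjusted p = 8.11e-06). ALDH1A3 rose at 3% oxygen in metastasizing cells, from 0.930 and 1.27 to 16.5 and 15.3 TPM (3.36 ± 0.21, limma adjusted p = 4.33e-06).

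Of 19 other enzymes that clear aldehydes and carbonyls, 1 was called in each oxygen comparison, a share near that of all genes. ALDH2, the mitochondrial acetaldehyde dehydrogenase, fell in primary and immortalized cells and rose in metastasizing cells, there from 5.20 and 5.92 to 23.5 and 41.3 TPM (2.39 ± 0.21, limma adjusted p = 3.34e-05). CBR3, a carbonyl reductase, fell in transformed cells from 30.0 and 29.4 to 9.79 and 13.9 TPM (-1.31 ± 0.18, limma adjusted p = 0.000448). CBR3 stands in the NRF2 target list too.

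Some of these calls between oxygen levels did not hold without 1 library or with fewer groups in the fit. PTGES in immortalized cells had an adjusted p (limma) of 0.0258 without replicate b at atmospheric oxygen and of 0.0202 and 0.0200 without replicate a or b at 3% oxygen, at -3.02 to -3.45 on the log2 scale. In transformed cells SLC7A11 had 0.0113 without replicate b at atmospheric and 0.0108 without replicate a at 3% oxygen, at 2.32 and 1.96, and MAFG had 0.0164 and 0.0144 without either atmospheric library and 0.0177 without replicate b at 3% oxygen. BACH1 and KCNAB2 were under 2-fold there without 1 library, BACH1 at 0.90 without replicate b at atmospheric and 0.92 without replicate b at 3% oxygen, and KCNAB2 at 0.996 without replicate a at 3% oxygen. PTGS2 in primary cells had an adjusted p (limma) of 0.0196 to 0.0364 without 1 library, at 2.28 to 2.72. ALDH2 in immortalized cells had 0.0160 to 0.0189 without 1 library, at -1.24 to -1.22, and in primary cells 0.0116 without replicate a at atmospheric oxygen. With only the transformed groups in the fit, the adjusted p (limma) was 0.0240 for PTGS2, 0.0111 for MAFF, 0.0110 for CBR3 and 0.0101 for KCNAB2, and with only the primary groups it was 0.0111 for ALDH2. With only the metastasizing groups in the fit, MAFF, ALDH2 and SRXN1 were not called, with an adjusted p (limma) of 0.0114, 0.0195 and 0.0698.

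**Figure D5:**
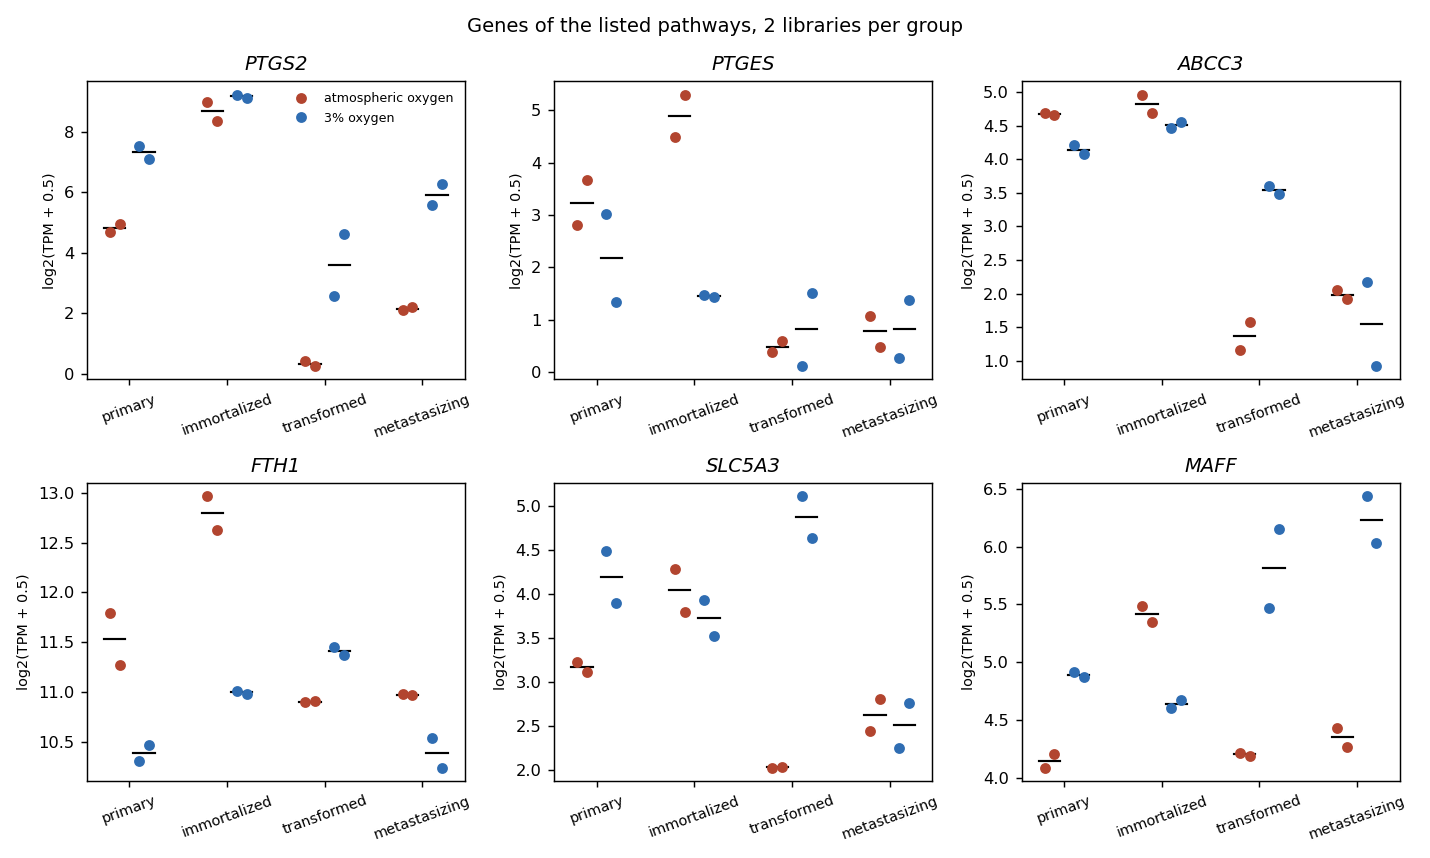
Levels as log2(TPM + 0.5) of PTGS2, PTGES, ABCC3, FTH1, SLC5A3 and MAFF in 4 stages at atmospheric (red) and 3% oxygen (blue), with 1 point per library and a line at the mean of 2; the vertical axes differ. PTGES and FTH1 were lower at 3% oxygen in immortalized cells, and SLC5A3 and MAFF were higher at 3% oxygen in transformed cells.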

How the data were processed

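RNA of 4 lines at 2 oxygen levels (16 libraries) was prepared with a stranded mRNA kit and sequenced on an Illumina HiSeq2500. The authors quantified transcripts with kallisto 0.42.1 against GRCh37, and deposited 1 TPM value per transcript and library, with a total of 1000000 in each library. TPM keep no read counts, so the depth behind each value and the precision it gives are unknown. The transcript release is not given in the sources used here.

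Of 180253 transcripts, 151453 were matched by identifier to GENCODE 44 on GRCh37 (holding 88.2% to 90.1% of each library's TPM) and summed by gene, and 1 stray header line was skipped. limma 3.58.1 in R 4.3.3 was fitted to log2(TPM + 0.5) with 8 group coefficients, all 16 libraries and an intensity trend, without a replicate block. The procedure was tested on simulated data. Python 3.11.15, pandas 2.3.3, numpy 2.4.6, Biopython 1.88 and matplotlib 3.10.9 were used for the other steps. With 2 libraries per group no exact permutation test of a single gene can pass a threshold of 0.05.

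The members and lists were chosen with earlier results of these data known. All 7 members are named. From each list, up to 4 genes per family of comparisons were named, those with the largest called difference and non-overlapping libraries, beside the checks TERT, HRAS, CA9, PDK1 and NDRG1 and the 3 genes most like each member. NFE2L2, KEAP1 and SORD between oxygen levels, the lowest related reductases, and FTL, EPHX1 and PIR, were added after their values were seen, as were listed genes named only for a difference between stages in their oxygen response. Alternatives were pseudocounts of 1 and 0.1, no filter and a filter of 5 TPM, median-ratio rescaling, a fit of only the groups compared, a replicate block, an adjusted p of 0.05, protein-coding transcripts only, and each library left out.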

Additional observations from a re-analysis of the deposited data

Results flagged for a closer look

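Members whose libraries at 3% oxygen lay wholly above the atmospheric ones in one stage and wholly below them in the neighbouring stage drew attention, and these differences between stages were not tested, since the members were picked on the same values. The oxygen difference of AKR1B1 changed by -3.03 from primary to immortalized cells and by 4.36 from immortalized to transformed cells (log2). That of AKR1C1 changed by -3.57 from primary to immortalized and by 1.28 from transformed to metastasizing cells. AKR1C3 changed by 3.02 from immortalized to transformed cells, and AKR1C2 by -0.83 from primary to immortalized cells at levels under 1.5 TPM.

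Listed genes were set apart by an oxygen difference that changed between neighbouring stages in limma's test of that change, with an adjusted p under 0.01 and over 2-fold, as it did for 235 of 12632, 1522 of 12715 and 1065 of 12590 genes in the 3 pairs of stages. From primary to immortalized cells the change was positive for RDH10 (2.99), ALDH1A1 (2.97), DHRS3 (2.53), NQO1 (1.39) and ALDH7A1 (1.13), and negative for HSD17B2 (-3.53), MAFF (-1.53), HK2 (-1.30) and RDH11 (-1.06). From immortalized to transformed cells it was positive for HSD11B1 (7.20), PTGES (3.76), HSD17B14 (3.27), SLC5A3 (3.16), HSD17B2 (2.91), ABCC3 (2.49), MAFF (2.39), FTH1 (2.30), PTGS1 (2.08), MAFG (1.87), KCNAB2 (1.76), ALDH2 (1.69), RDH5 (1.2), FTL (1.18) and BACH1 (1.09), and negative for RDH10 (-1.98), NQO1 (-1.78), KHK (-1.72), CBR3 (-1.55), HSD17B10 (-1.35) and SORD (-1.24). From transformed to metastasizing cells it was positive for ALDH1A3 (2.58), SRXN1 (1.99), ALDH2 (1.93), OSGIN1 (1.81), TXN (1.15), GCLM (1.12) and SRD5A1 (1.08), and negative for SLC5A3 (-2.97), ABCC3 (-2.61), RDH5 (-2.14), HSD17B11 (-1.59), KCNAB2 (-1.17), HK2 (-1.15) and FTH1 (-1.09). The values of ALDH1A1, DHRS3 and HSD11B1, and the second one of HSD17B2 (2.91), involve groups listed at 0 and depend on the pseudocount. These changes were not compared across the alternatives below. Those from transformed to metastasizing cells rest in part on the metastasizing libraries at 3% oxygen, which stood apart from each other.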

How the results depend on the processing

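Of 288 recomputed counts of calls, 250 stayed within 1.5 times the count reported. No called member and none of 146 listed gene calls between oxygen levels or between stages changed sign under any alternative. With only the groups compared in the fit, member calls went from 1 to 0 for oxygen in primary and in transformed cells. They also went from 1 to 0 for the last step at 3% oxygen, and from 0 to 1 for the first. For oxygen in immortalized cells they went from 2 to 3. Listed gene calls under that fit went from 13 to 3, 14 to 9 and 12 to 2 for oxygen in primary, transformed and metastasizing cells, and from 5 to 8 and 10 to 0 in the last step at atmospheric and 3% oxygen. Among all genes limma then called 164, 570 and 112 against 646, 916 and 941, and none against 727 in that last step at 3% oxygen, where 2408 had an unadjusted p under 0.05. An adjusted p under 0.05 gave 2 members for oxygen in transformed, 1 in metastasizing cells, and 1, 2 and 2 in the 3 steps at 3% oxygen. Protein-coding transcripts alone gave 2 members in the second step at 3% oxygen, median-ratio rescaling 0 in the last step at atmospheric oxygen, and a pseudocount of 1 or a filter of 5 TPM 0 in the last step at 3% oxygen. The cause of these shifts was not tested.

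Leaving out 1 library at a time, the other replicate being assumed to vary like the other groups, gave 0 to 1 members for oxygen in metastasizing cells, 2 to 3 and 0 to 1 in the first and last step at atmospheric oxygen, and 1 to 3 and 0 to 2 in the second and last step at 3% oxygen. Listed gene calls ranged from 7 to 12 for oxygen in primary (lowest without atmospheric replicate a), 5 to 8 in immortalized (without atmospheric replicate b or 3% replicate b), and 7 to 19 in metastasizing cells (7 without atmospheric replicate b, 19 without 3% replicate b). In the last step they ranged from 1 to 4 at atmospheric oxygen (1 without metastasizing replicate b) and from 6 to 14 at 3% oxygen (6 without transformed replicate a). Calls among all genes fell at most to 320, 270, 513 and 495 for oxygen in the 4 stages, and rose to 1450 in metastasizing cells without 3% replicate b.

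Deviations of same-letter libraries had correlations from -0.155 to 0.226 over the comparisons. With 2 libraries per group these cannot decide whether the letters a and b pair the samples. A replicate block over all libraries gave 601, 576, 879 and 896 calls among all genes for oxygen in the 4 stages, against 646, 592, 916 and 941. A replicate block within each stage, added after the data were seen, gave 359, 328, 612 and 541, and lowered the listed gene calls in metastasizing cells from 12 to 7. Either block ended the call of AKR1C2 in the first and second step at atmospheric oxygen and that of KHK in immortalized cells (limma adjusted p = 0.0101 and 0.0198). The block within each stage also ended those of PTGES in immortalized cells (0.0174) and PTGS2 in primary cells (0.0166). Crossed letters gave 467, 439, 801 and 755 calls. Differences in genes near 1 TPM, AKR1C2 and AKR1B10 among them, are limited by an unknown depth.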
